A study of Mus musculus with 8 samples.

Results

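Absorption of dietary fat in the small intestine is carried out by enterocytes, and the genes described here encode its core machinery: the uptake proteins Cd36 and Npc1l1, the cytosolic carriers Fabp1 and Fabp2, the assembly proteins Dgat1, Mttp and Apob, and the surface apolipoproteins Apoa1, Apoa4 and Apoc3. They were taken by name, as rows of the deposited table whose gene symbol equalled a listed name, and 10 of 10 were found among its 35199 genes. The names, and the gene lists used below, were chosen with earlier results of these data known. Their counts beside the shares of all genes are therefore a description only. All 10 passed the expression filter that left 12849 genes for testing, but Cd36 passed it through the scopolamine group alone, since 0 of its sham libraries reached the filter's level.

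In the enterocyte, fatty acids and cholesterol cross the brush border, are bound by carriers in the cytosol and are re-esterified at the endoplasmic reticulum. There the microsomal transfer protein loads triglyceride onto apolipoprotein B, and the resulting chylomicron leaves the cell carrying further apolipoproteins on its surface. Tuft cells are rare chemosensory cells that descend from the same crypt stem cells.

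The RNA came from live epithelial cells sorted for the ZSgreen reporter of Dclk1-DTR-ZSgreen mice, a transgenic line backcrossed to C57BL/6J that carries the reporter and a diphtheria toxin receptor (DTR) on a bacterial artificial chromosome with Dclk1, the gene of a tuft cell marker. The study did its analyses in jejunum. Osmotic pumps were implanted at 8 to 10 weeks of age and left for 7 days, either with scopolamine, an antagonist of all muscarinic acetylcholine receptors, at 0.5 mg per kg per day (4 mice) or with sodium chloride as sham (4 mice). Each mouse gave 1 library, and both groups carried the same transgene, so the comparison asks what muscarinic blockade does to the RNA of reporter-positive cells. Libraries are numbered 1 to 4 within each group as names only.

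Total estimated counts were 20327680, 20244608, 14343362 and 20857433 in scopolamine 1 to 4 and 25769940, 40426059, 41428916 and 35391538 in sham 1 to 4. All 4 sham libraries exceeded the deepest of the treated ones, so depth differed along with treatment. Sham 1 and sham 3 were amplified from 200 pg of RNA with 15 cycles, and the other 6 libraries from 1000 pg with 10 cycles. Scopolamine 1 and sham 1 came from 3000 sorted cells and the others from 4000. Levels are given as CPM, the count of a gene divided by its library's total after TMM correction and expressed on a common scale. A floor of 3 counts corresponded to 0.073 to 0.212 CPM, and covers counting error only, as for every interval here, because no molecular identifiers were used.

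The sorted cells held the tuft cell markers at high levels. Dclk1 stood at 4366 ± 1009.9 CPM in scopolamine and 4878 ± 688 CPM in sham (SD, n = 4 each), the ion channel gene Trpm5 at 1370.3 ± 326 and 1359.8 ± 221 CPM (SD, n = 4 each), and the tuft cell transcription factor gene Pou2f3 at 330.2 ± 100.02 and 422 ± 139 CPM (SD, n = 4 each). For all 3 the group difference was smaller than the SD within the groups. Dclk1 and Trpm5 each overlap an antisense neighbour, and since the methods do not say whether strand was used in counting, some reads may belong to the neighbour.

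RNA of 9 of the 10 lipid absorption genes was present in every library, Cd36 having no count in sham 4, and the mean was higher after scopolamine for 10 of 10 genes, or 9 of 9 without Cd36. Of all genes tested, 49.1% had a positive log2 fold change. With edgeR's quasi-likelihood test and Benjamini-Hochberg adjustment, 0 of the 10 had an adjusted p under 0.1, against 0 of all 12849 genes tested (0%). DESeq2 called 1 of the 10, Cd36, or 0 of 9 without it, where it called 1.01% of all genes as higher. At an unadjusted p under 0.05 edgeR found 6 of the 10 higher, namely Apoa4, Apob, Mttp, Dgat1, Cd36 and Npc1l1, where 3.33% of all genes tested were higher at that level. It found 0 of the 10 lower, where 2.66% of all genes were lower. Without Cd36 the count was 5 of 9. With the series of mouse IDs, described below, as a covariate, it was 2 of 10, or 1 of 9 without Cd36. The share of all genes higher was then 3.28%.

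The median log2 fold change of the 9 genes that did not depend on the scopolamine group to pass the filter was 1.13, beside a median of -0.011 over all genes tested. Every scopolamine library lay above every sham library for Apob and Cd36, 2 of 10 genes, where 1.92% of all genes did so. Without Cd36, whose way past the filter favoured that outcome, it was 1 of 9. Every scopolamine library lay below every sham library for 0 of the 10, where 1.95% of all genes did so. In bulk RNA, more cells of a type and more RNA per cell cannot be told apart.

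One control mouse, sham 1, held the highest sham value for 9 of the 10 genes, Cd36 being the exception. The share of all genes with sham 1 highest was not computed. Sham 1 was far above the other sham mice for Apoa1, Apoc3, Fabp1 and Fabp2 and nearer to the next one for Apob and Npc1l1. When sham 1 was left out, the groups were fully apart for 8 of 10 genes, or 7 of 9 without Cd36, with Fabp1 and Npc1l1 still overlapping, where 5.09% of all genes were apart in that direction. The median log2 fold change of the 9 genes was then 1.84, beside -0.0088 over all genes. The count at an unadjusted p under 0.05 was 9 of 10 in edgeR, or 8 of 9 without Cd36, where 5.25% of all genes were higher, and no gene of the 10 had an adjusted p under 0.1. Sham 1 was singled out by its high values for these genes, so leaving it out favoured larger differences. The shares over all genes carry no such choice. Leaving out scopolamine 2 went the other way. The count in edgeR was then 1 of 10, Cd36, and 0 of 9 without Cd36, where 1.61% of all genes were higher, while the median over the 9 genes was 0.80. It was 3 of 10 without sham 2, or 2 of 9 without Cd36 (3.48% of all genes), and 3 of 10 without sham 4, or 2 of 9 without Cd36 (2.74% of all genes).

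**Figure D1:**
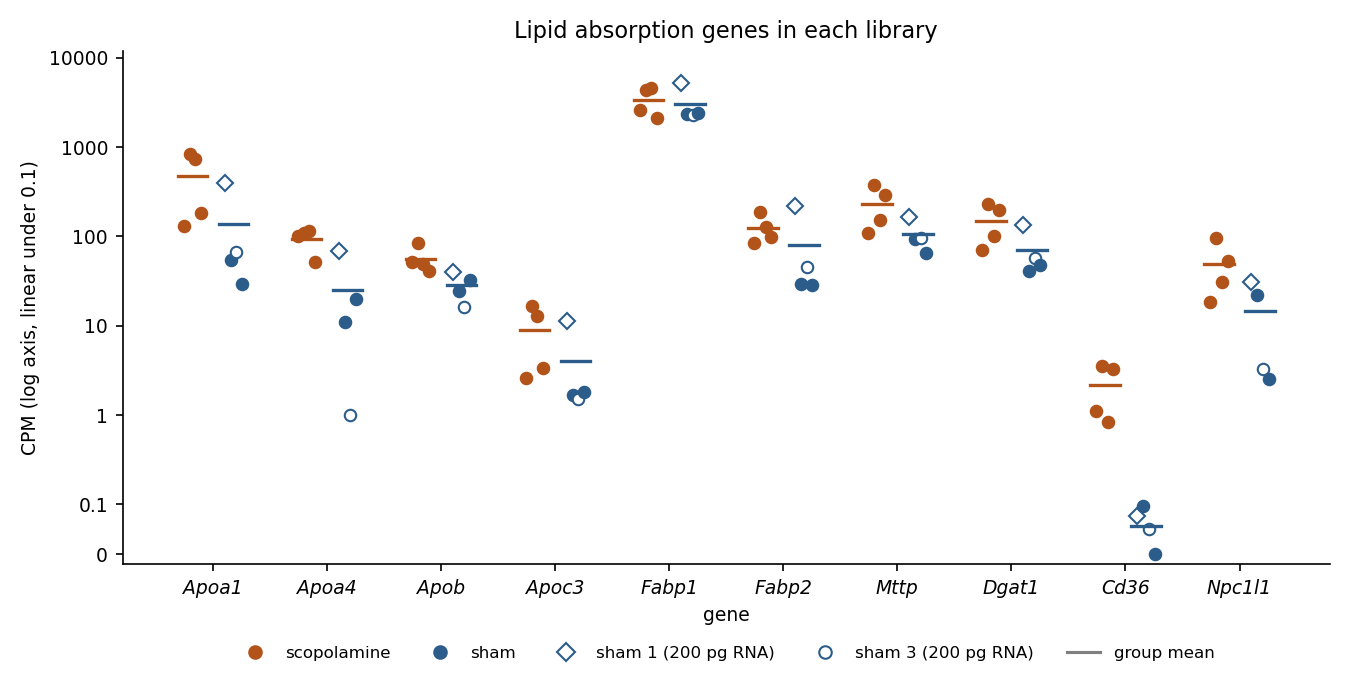
Level of each of the 10 genes in each library, in CPM on a log axis that is linear under 0.1, with 1 point per mouse, horizontal bars for group means (n = 4), brown for scopolamine and blue for sham. Open symbols mark the sham libraries made from 200 pg of RNA, and the diamond, sham 1, is the highest sham value for 9 of the 10 genes.

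Cd36 encodes a fatty acid translocase of the plasma membrane. Its counts were 22, 75, 12 and 69 in scopolamine 1 to 4 and 2, 4, 2 and 0 in sham 1 to 4, or 1.10, 3.52, 0.848 and 3.27 CPM against 0.0758, 0.0974, 0.0496 and 0 CPM. All treated mice were above all sham mice, and 3 of the 4 sham mice did not exceed the floor of 3 counts. Summed over the groups, 178 counts stood against 8, a ratio of 42.0 per total count with an exact 95% interval of 20.9 to 98.8 for counting error alone. The fitted log2 fold change was 5.18 (standard error 1.09), and it rests on few sham counts. The adjusted p was 0.812 in edgeR's quasi-likelihood test with Benjamini-Hochberg adjustment. DESeq2 gave Cd36 a Benjamini-Hochberg adjusted p of 0.00019, whereas the edgeR alternatives ranged from 0.319 to 0.999. It was the only 1 of the 10 genes that DESeq2 called, where DESeq2 called 1.01% of genes as higher. Without Cd36, which passed the expression filter through the scopolamine group alone, the DESeq2 count was 0 of 9.

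Npc1l1 encodes the sterol transporter through which cholesterol enters the enterocyte. Its level was 18.3, 95.7, 30.9 and 52.6 CPM in scopolamine 1 to 4 and 30.8, 22.2, 3.32 and 2.54 CPM in sham 1 to 4. The groups overlapped, because sham 1 and sham 2 both exceeded the lowest treated mouse, while sham 3 and sham 4 were far below all others. The log2 fold change was 1.75 (standard error 0.79), with an unadjusted p of 0.0498 and a Benjamini-Hochberg adjusted p of 0.812 in edgeR. It was 1.20 without scopolamine 2 and 2.40 without sham 1. The spread within each group was wide, 49.4 ± 34.0 CPM with scopolamine against 14.7 ± 14.0 CPM in sham (SD, n = 4 each).

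Fabp1 encodes the liver-type fatty acid binding protein, which also serves the small intestine. It reached 2624, 4315, 4587 and 2132 CPM in scopolamine 1 to 4 and 5280.1, 2364, 2284 and 2382 CPM in sham 1 to 4. The highest value of all was in a sham mouse, sham 1, and the lowest in a treated mouse, scopolamine 4, with the remaining sham mice close together among the lower treated ones. The log2 fold change was 0.15 (standard error 0.33) with a Benjamini-Hochberg adjusted p of 0.972 in edgeR, so the groups did not differ beyond the spread between mice, and the sign was not stable. It was -0.026 without scopolamine 3 and -0.30 with the series of mouse IDs as a covariate.

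Fabp2, the intestinal-type paralogue, is a carrier typical of enterocytes. Its values were 84.2, 186, 128 and 97.6 CPM in scopolamine 1 to 4 and 219, 29.0, 45.9 and 28.4 CPM in sham 1 to 4. The top value was again sham 1, above every treated mouse, whereas the other 3 sham mice were all below every treated mouse. Over all mice edgeR gave a log2 fold change of 0.62 with a standard error of 0.62 and a Benjamini-Hochberg adjusted p of 0.898, and the log2 fold change ran from 0.34 without sham 4 to 1.84 without sham 1 when each library was left out. Fabp2 overlaps the antisense transcript 4933405D12Rik, so its reads could include antisense ones.

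Dgat1 encodes the acyltransferase that makes triglyceride from diacylglycerol. It was measured at 70.8, 229, 102 and 198 CPM in scopolamine 1 to 4 and at 133, 40.9, 57.3 and 47.9 CPM in sham 1 to 4. Only sham 1 reached into the treated range, and the other sham mice were below all treated mice. Its log2 fold change of 1.10 (standard error 0.45) had an unadjusted p of 0.0314 and a Benjamini-Hochberg adjusted p of 0.812 in edgeR, and it ran from 0.81 without scopolamine 2 to 1.61 without sham 1.

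Mttp encodes the large subunit of the microsomal transfer protein. In scopolamine 1 to 4 it stood at 109, 373, 152 and 294 CPM and in sham 1 to 4 at 166, 94.0, 97.4 and 65.2 CPM. Scopolamine 2 and scopolamine 4 were well above the rest, as they were for Dgat1, and sham 1 overlapped the lower treated mice. For Mttp the log2 fold change was 1.13 (standard error 0.39, unadjusted p = 0.0157, Benjamini-Hochberg adjusted p = 0.812 in edgeR). That value ran from 0.80 without scopolamine 2 to 1.43 without sham 1. The gene overlaps Trmt10a and an antisense transcript on the opposite strand, and shared reads there cannot be told apart.

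Apob encodes the structural protein of the chylomicron. Its level was 52.5, 84.3, 48.7 and 40.6 CPM in scopolamine 1 to 4 and 40.5, 24.7, 16.1 and 32.6 CPM in sham 1 to 4. The groups did not overlap, but scopolamine 4 and sham 1 nearly touched, and with library size in place of TMM factors they did overlap. Its log2 fold change of 0.99 had a standard error of 0.33, an unadjusted p of 0.0117 and a Benjamini-Hochberg adjusted p of 0.812 in edgeR. Leaving out each library gave 0.72 (without scopolamine 2) to 1.19 (without sham 1). The group means were 56.5 ± 19.2 CPM with scopolamine and 28.5 ± 10.5 CPM in sham (SD, n = 4 each).

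Apoa1 encodes the main protein of high-density lipoprotein, made by liver and intestine. It varied widely, at 131, 841, 730.3 and 183 CPM in scopolamine 1 to 4 and 395, 54.4, 66.6 and 29.1 CPM in sham 1 to 4. Scopolamine 2 and 3 were far above scopolamine 1 and 4, and sham 1 lay between the pairs, while the other 3 sham mice were below every treated mouse. Over all mice edgeR gave a log2 fold change of 1.79 with a standard error of 0.84 and a Benjamini-Hochberg adjusted p of 0.812, and the log2 fold change was 3.23 without sham 1 and 1.35 without scopolamine 2, the extremes when each library was left out.

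Apoa4 encodes an apolipoprotein that intestinal cells secrete on chylomicrons after a fatty meal. It was at 102, 108, 116 and 51.5 CPM in scopolamine 1 to 4 and at 68.0, 10.98, 0.992 and 19.9 CPM in sham 1 to 4. Scopolamine 1 to 3 were close to each other, sham 1 exceeded only scopolamine 4, and sham 3 held 40 counts where the next lowest library, sham 2, held 451. The fit put Apoa4 at 1.92 on the log2 scale (standard error 0.86), with an unadjusted p of 0.0476 and a Benjamini-Hochberg adjusted p of 0.812 in edgeR. With each library left out, its log2 fold change ran from 1.52 without sham 3 to 3.13 without sham 1. A pair of noncoding transcripts lies on the opposite strand of Apoa4, so its reads could include theirs.

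Apoc3 encodes an inhibitor of triglyceride clearance that is carried on lipoproteins. It stood at 2.61, 16.6, 13.0 and 3.41 CPM in scopolamine 1 to 4 and at 11.2, 1.68, 1.51 and 1.82 CPM in sham 1 to 4. The pattern across mice was that of Apoa1, with scopolamine 2, scopolamine 3 and sham 1 high and the rest low. Its log2 fold change of 1.13 (standard error 0.89) had a Benjamini-Hochberg adjusted p of 0.873 in edgeR. It was 0.64 without scopolamine 2 and 2.39 without sham 1.

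Per length of exon, Fabp1 had the highest level of the 10 genes and Cd36 the lowest in both groups. In CPM per kb of exon, Fabp1 was at 6175 ± 2204 with scopolamine and 5565 ± 2656 in sham, above Apoa1 at 381 ± 296 and 110.2 ± 140.1 (SD, n = 4 each). Fabp2 followed at 128 ± 46.9 and 83.6 ± 96.1 CPM per kb (SD, n = 4 each). Fabp1 was apart from Apoa1 in every library of both groups, but the ranges of Apoa1 and Fabp2 overlapped in both.

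Below these came Apoa4, Dgat1 and Mttp, at 52.1, 49.1 and 37.4 CPM per kb with scopolamine and 13.8, 22.9 and 17.0 CPM per kb in sham, and their ranges overlapped within each group. Npc1l1, Apoc3 and Apob were at 11.1, 8.77 and 4.06 CPM per kb with scopolamine and 3.29, 4.00 and 2.04 CPM per kb in sham, again with overlapping ranges. Ranges also overlapped between these sets, for Fabp2 and Dgat1 and for Apoa4 and Apoc3 in sham, and for Mttp and Npc1l1 with scopolamine. Fabp2 and Apoa4 were apart with scopolamine. Cd36 was last and apart from Apob in both groups, at 0.608 and 0.0155 CPM per kb. In CPM per kb over all 8 libraries, Fabp1 exceeded 99.9% of the genes with a count and Cd36 42.3%. Lengths are the union of all annotated exons, so a gene with long rare exons is understated on this scale.

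Fabp1 dominated the summed level of the group. Its share of the counts of the 10 genes was 82.1%, 69.0%, 77.6% and 69.8% in scopolamine 1 to 4 and 83.2%, 89.5%, 88.8% and 91.3% in sham 1 to 4. That share was lower in every treated mouse than in every sham mouse, though scopolamine 1 and sham 1 were close. It also falls when the other genes are higher, and the level of Fabp1 itself overlapped between the groups. Together the 10 genes made up 0.313%, 0.659%, 0.583% and 0.309% of the total count in scopolamine 1 to 4 and 0.649%, 0.268%, 0.250% and 0.247% in sham 1 to 4. By this share sham 1 resembled scopolamine 2 and 3, and scopolamine 1 and 4 were nearer to the other sham mice.

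The mouse IDs in the labels begin with either of a pair of letters, M or N, which the labels do not explain. Series M held scopolamine 1 to 3 and sham 1, and series N held scopolamine 4 and sham 2 to 4, so each series had 1 library on 1 side. For the counts within each series, given next, the share of all genes was not computed. In series M the treated mean exceeded sham 1 for 7 of the 10 genes, the exceptions being Apoc3, Fabp1 and Fabp2 with ratios of 0.955, 0.728 and 0.605. In series N scopolamine 4 exceeded the sham mean for 9 of 10, the exception being Fabp1 with a ratio of 0.910.

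The ratios for the other genes were smaller within series M than within series N in each case. They ran from 1.01 for Dgat1 to 24.0 for Cd36 in series M, and from 1.66 for Apob to 66.7 for Cd36 in series N. With the series as a covariate in edgeR, 2 of the 10 genes had an unadjusted p under 0.05, or 1 of 9 without Cd36, where 3.28% of all genes were higher. The log2 fold changes were then 1.19 for Apoa1, 1.48 for Apoa4, 0.67 for Apob, 0.48 for Apoc3, -0.30 for Fabp1, 0.39 for Fabp2, 1.06 for Mttp, 1.01 for Dgat1, 5.27 for Cd36 and 1.57 for Npc1l1. All but that of Cd36 were below the values over all libraries without the covariate.

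Depth and RNA input were not balanced either. With every library thinned to the smallest total, 5 of the 10 genes had an unadjusted p under 0.05 in edgeR, or 4 of 9 without Cd36, where 3.65% of all genes were higher. Without both 200 pg libraries the log2 fold changes were 3.48 for Apoa1, 2.58 for Apoa4, 0.95 for Apob, 2.31 for Apoc3, 0.50 for Fabp1, 2.08 for Fabp2, 1.52 for Mttp, 1.73 for Dgat1, 5.31 for Cd36 and 1.99 for Npc1l1. All but that of Apob were above the values over all libraries. The part of series, input and depth in the differences was not tested beyond these values.

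Other genes of fat handling, a list of 61 in 7 groups, were less uniform. Of the 58 that passed the filter, 38 had a positive and 20 a negative log2 fold change, with a median of 0.30. With edgeR 0 of them had a Benjamini-Hochberg adjusted p under 0.1, and DESeq2 called 1, Abcg5, where it called 1.01% of all genes as higher. At an unadjusted p under 0.05 edgeR had 10 higher (17.2%, against 3.33% of all genes) and 1 lower (1.72%, against 2.66%). The lower gene was Lpin2, which encodes a phosphatidate phosphatase, at 89.8 ± 14.8 CPM with scopolamine and 128 ± 20.8 CPM in sham (SD, n = 4 each). It was chosen after its values were seen, as the single gene of its count. The count of 10 was 4 without scopolamine 2, 5 without scopolamine 4 and 6 without sham 4, and 15 without scopolamine 1. The share of all genes higher at that level moved as well, from 3.33% to 1.61%, 2.06%, 2.74% and 4.06% in the same settings.

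The group listed as uptake and efflux at the brush border also holds genes that act elsewhere, such as Stard3. It had 6 of 8 genes higher and 2 lower, with a median log2 fold change of 0.49. Abcg5, a subunit of the transporter that returns sterols to the gut lumen, was at 11.8, 22.1, 25.1 and 25.9 CPM in scopolamine 1 to 4 and 11.2, 7.77, 10.9 and 9.89 CPM in sham 1 to 4. Its groups did not overlap, although scopolamine 1 was close to sham 1. Its log2 fold change was 1.09 (standard error 0.36, unadjusted p = 0.0118, Benjamini-Hochberg adjusted p = 0.812 in edgeR). In DESeq2 its Benjamini-Hochberg adjusted p was 0.0539. Abcg5 overlaps its partner Abcg8 on the opposite strand, so the pair could share reads. The fatty acid transport protein gene Slc27a4 was at 60.9 ± 21.6 CPM against 38.0 ± 15.8 CPM, and the endosomal sterol carrier gene Stard3 at 69.2 ± 12.5 CPM against 74.6 ± 14.5 CPM (SD, n = 4 each).

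Among 5 intracellular carriers, 3 were higher and 2 lower, and 0 had an unadjusted p under 0.05. Rbp2, which carries retinol in the enterocyte, was at 85.5, 335, 157 and 229 CPM in scopolamine 1 to 4 and at 211, 17.6, 46.1 and 47.3 CPM in sham 1 to 4. Sham 1 was within the treated range and the other sham mice were below it. Dbi, the acyl-CoA binding protein, was not higher after treatment, at 812 ± 137 CPM against 977 ± 236 CPM in sham (SD, n = 4 each).

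Activation and re-esterification had 7 of 13 genes higher, against 49.1% of all genes. At an unadjusted p under 0.05, 3 were higher, against 3.33% of all genes, and 1 was lower, Lpin2, against 2.66%. Mogat2, the monoacylglycerol acyltransferase of the gut, was at 27.4, 149.95, 76.2 and 103 CPM in scopolamine 1 to 4 and at 61.9, 18.6, 20.2 and 16.5 CPM in sham 1 to 4. Sham 1 exceeded only scopolamine 1, and the other sham mice were below all treated mice. The log2 fold change of Mogat2 was 1.61 (standard error 0.55, unadjusted p = 0.0139, Benjamini-Hochberg adjusted p = 0.812 in edgeR).

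Acsl5, an acyl-CoA synthetase, was at 199 ± 77.6 CPM with scopolamine and 107 ± 21.5 CPM in sham (SD, n = 4 each), a log2 fold change of 0.90 (standard error 0.28). Its unadjusted p was 0.00858 and its Benjamini-Hochberg adjusted p 0.812 in edgeR, and 3 of the treated mice were above all sham mice. Agpat2, which acylates lysophosphatidate, did not differ, at 185 ± 39.1 CPM against 185 ± 47.7 CPM (SD, n = 4 each).

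In the group for chylomicron assembly and export, 7 of 9 genes were higher, against 49.1% of all genes, and 4 of them had an unadjusted p under 0.05, against 3.33%. P4hb encodes protein disulfide isomerase, the partner subunit of the microsomal transfer protein. It was at 539.8, 986, 604 and 1046 CPM in scopolamine 1 to 4 and 539, 424, 493 and 298 CPM in sham 1 to 4. The groups did not overlap, with scopolamine 1 and sham 1 less than a CPM apart and scopolamine 2 and 4 the highest, as for Mttp. With library size in place of TMM factors the P4hb groups did overlap. For P4hb the log2 fold change was 0.86 (standard error 0.25, unadjusted p = 0.00663, Benjamini-Hochberg adjusted p = 0.812 in edgeR). Prap1 was at 96.7, 435, 148 and 369.8 CPM in scopolamine 1 to 4 and 219, 89.7, 92.2 and 93.1 CPM in sham 1 to 4, again with scopolamine 2, scopolamine 4 and sham 1 high.

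The list of other apolipoproteins held 6 genes. Apoa5, Apoc1 and Apom had no count in any library, where 3 counts would correspond to 0.212 CPM at most. Of the 3 that passed the filter, 1 was higher and 2 lower. Apoc2, the activator of lipoprotein lipase, was at 19.9 ± 3.06 CPM with scopolamine and 16.1 ± 6.32 CPM in sham, and Apoa2, a protein of high-density lipoprotein, at 1.21 ± 0.342 and 2.17 ± 1.80 CPM (SD, n = 4 each). Neither exceeded the spread between mice. Apoc2 overlaps an annotated gene on its own strand and could share its reads.

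Lipid droplet and lipolysis genes were close to level, 5 of 8 higher and 3 lower, with a median log2 fold change of 0.06. Cideb, a droplet protein that also takes part in lipoprotein lipidation, was at 323 ± 44.8 CPM with scopolamine and 319 ± 24.9 CPM in sham, and Pnpla2, the adipose triglyceride lipase, at 126 ± 22.5 and 130.0 ± 28.6 CPM (SD, n = 4 each). Cidec, a droplet fusion protein, had counts of 45, 83, 65 and 111 in scopolamine 1 to 4 and 0, 64, 0 and 0 in sham 1 to 4. All treated mice were above all sham mice in CPM, as for 1.92% of all genes tested. It reached the filter's level in 4 scopolamine libraries and 1 sham library, which favoured that outcome. Reads of Cidec were held by 1 sham mouse alone. Its fitted log2 fold change, 3.33 (standard error 1.69), rests on that mouse and had a Benjamini-Hochberg adjusted p of 0.812 in edgeR.

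Among 12 transcription factors of the programme, 9 were higher and 3 lower, with a median log2 fold change of 0.82. Hnf4a, a factor of enterocyte genes, was level at 222 ± 15.03 CPM with scopolamine and 234 ± 46.1 CPM in sham (SD, n = 4 each). Its relative Hnf4g was at 19.7, 77.3, 36.6 and 58.2 CPM in scopolamine 1 to 4 and at 28.4, 16.5, 25.4 and 17.1 CPM in sham 1 to 4. Here 3 treated mice were above all sham mice, and scopolamine 1 lay among them. The log2 fold change of Hnf4g was 1.14 (standard error 0.40, unadjusted p = 0.0159, Benjamini-Hochberg adjusted p = 0.812 in edgeR). Pparg, a nuclear receptor for fatty acids, was at 48.8 ± 26.2 CPM against 64.5 ± 28.8 CPM (SD, n = 4 each).

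**Figure D2:**
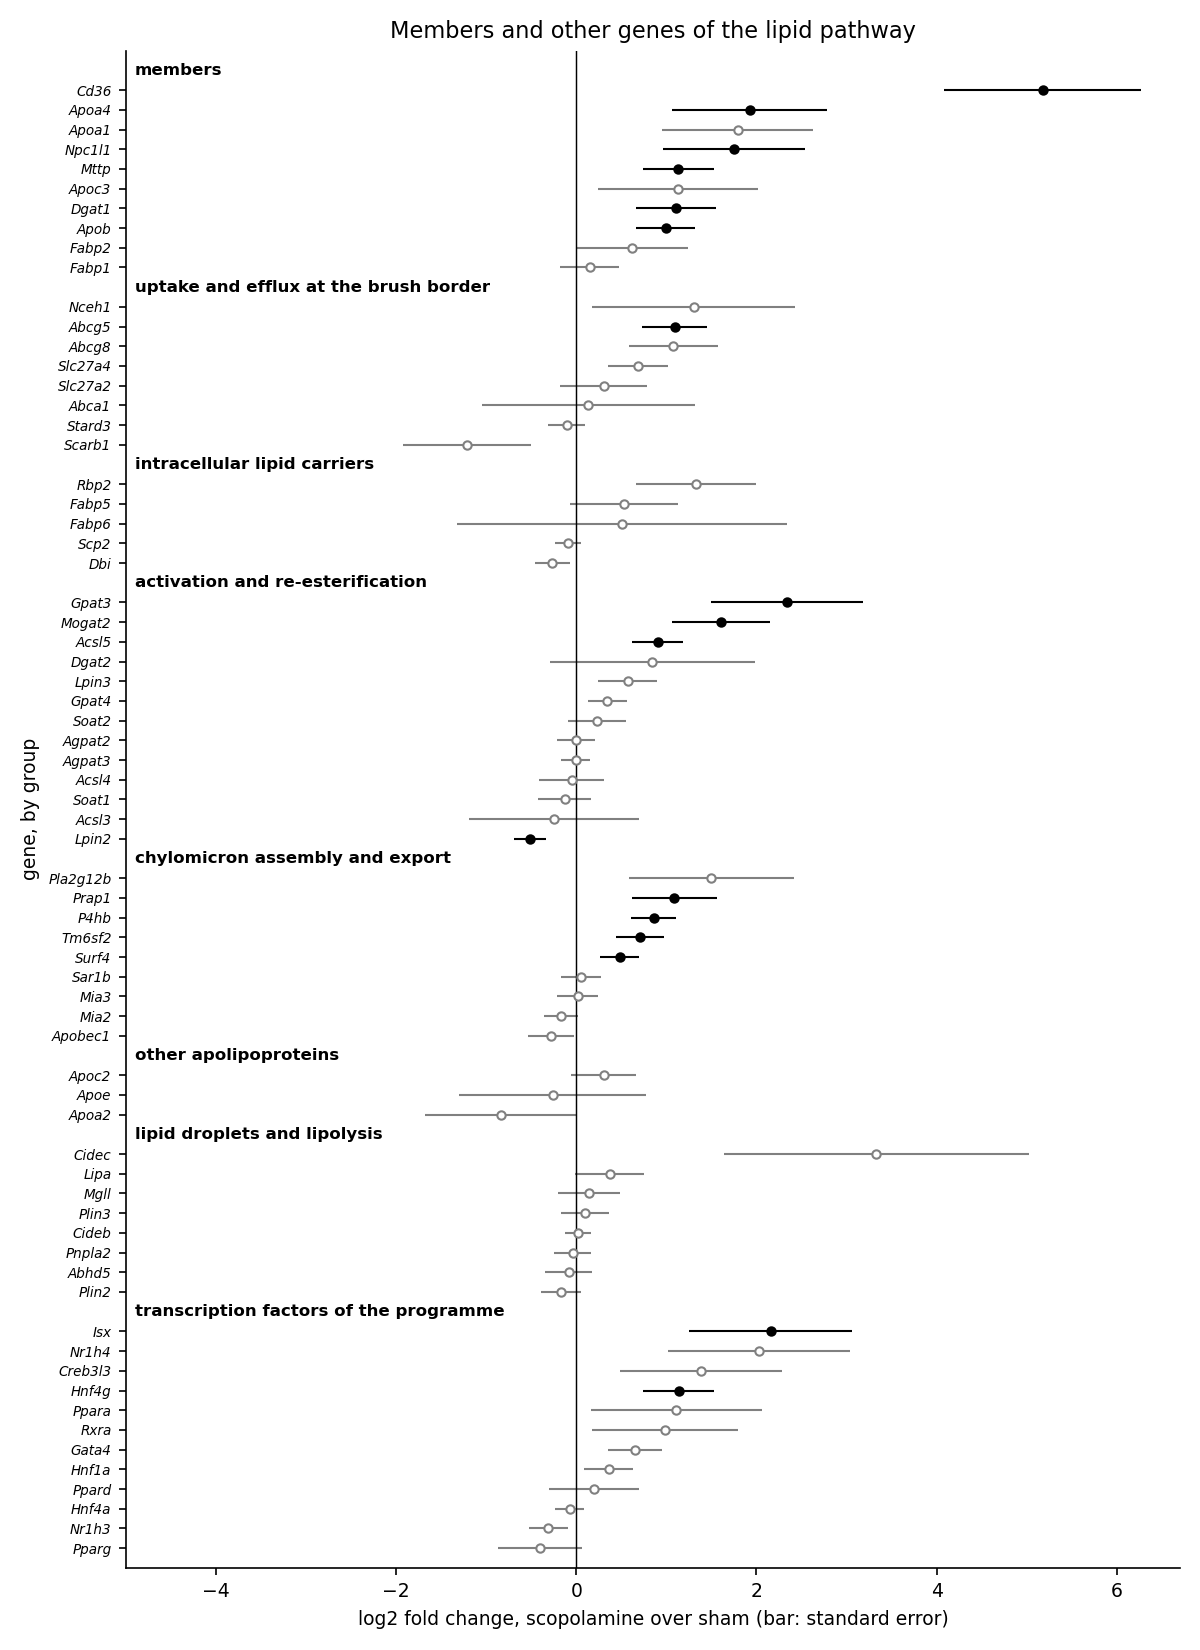
Log2 fold change of scopolamine over sham for the 10 genes (top group) and the 58 other genes of fat handling past the filter, by group, with standard errors from edgeR. Filled points have an unadjusted p under 0.05, and 0 of the points has an adjusted p under 0.1 in edgeR, while DESeq2 called Cd36 and Abcg5.

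Markers of enterocytes, the cells that normally hold these genes, had a higher mean after scopolamine as well. Of 15 enterocyte markers with no role in lipid absorption, such as the brush border enzymes Alpi, Sis and Anpep and the glucose transporter Slc5a1, 15 had a positive log2 fold change, against 49.1% of all genes tested, and their median was 1.66. Slc2a5 and Mep1a reached the filter's level in 1 sham library and Lct and Treh in 2. They did so in 4, 3, 4 and 4 scopolamine libraries, so the filter favoured a positive sign for them. In edgeR 5 of the 15 markers were higher at an unadjusted p under 0.05, against 3.33% of all genes. DESeq2 called 2 of them as higher, Anpep and Slc5a1, against 1.01% of all genes. Their summed level was 357, 1627, 804 and 1137 CPM in scopolamine 1 to 4 and 679, 107, 326 and 72.9 CPM in sham 1 to 4. The summed level of the 10 genes without Fabp1 was 572, 1938, 1322 and 923 CPM in scopolamine 1 to 4 and 1064, 278, 289 and 227 CPM in sham 1 to 4. With Fabp1 included, the sum was highest in sham 1, at 6345 CPM, ahead of scopolamine 2 at 6253 CPM. In the enterocyte sum and in the sum without Fabp1, scopolamine 2 was the highest library, sham 1 the highest sham library and scopolamine 1 the lowest treated library. The orders were not the same, since scopolamine 4 was above scopolamine 3 for the enterocyte markers and below it for the lipid genes. The sum of the 9 lipid genes divided by the enterocyte sum ran from 0.811 in scopolamine 4 to 3.12 in sham 4.

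Some defining enterocyte markers had no count in single libraries. Lct and Treh were at 0 in sham 2 and sham 3, Mep1a in scopolamine 1, sham 2 and sham 3, Slc2a5 in sham 2 and sham 4, and Cyp3a11 in sham 4. The part of enterocyte RNA in the levels of the lipid absorption genes was not tested.

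Most markers of secretory lineages had a positive log2 fold change as well. Of 7 goblet markers 7 were higher, with sums of 3511, 2117, 677 and 1062 CPM in scopolamine 1 to 4 and 1347, 333, 1145 and 338 CPM in sham 1 to 4, led by Tff3. Of 6 Paneth markers 6 were higher, with sums of 94.2, 173, 55.5 and 1397 CPM in scopolamine 1 to 4 and 101, 39.8, 125 and 77.3 CPM in sham 1 to 4, led by Lyz1. Goblet marker RNA was highest in scopolamine 1 and, among sham mice, in sham 1, and Paneth marker RNA was concentrated in scopolamine 4. Of 8 enteroendocrine markers 7 were higher, with sums of 437, 814, 441 and 1057 CPM in scopolamine 1 to 4 and 269.7, 178, 1052 and 285 CPM in sham 1 to 4. Sct led that list and was its 1 lower gene, with a log2 fold change of -0.13. Neurod1, Tph1 and Gip reached the filter's level in 1 sham library, and Gcg, Cck and the Paneth marker Ang4 in 2. They did so in 4 scopolamine libraries each, or 3 for Ang4, so the filter favoured a positive sign for them.

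Tuft and stem cell markers did not share the direction. Of 15 tuft markers 2 were higher and 13 lower, with -0.16 as the median log2 fold change and sums of 20858, 15741, 24843 and 14545 CPM in scopolamine 1 to 4 and 21365, 21277, 21788 and 18608 CPM in sham 1 to 4. The lowest tuft sums were in scopolamine 2 and 4. Of 4 stem cell markers, led by Ascl2, 4 were lower, at sums of 219, 138, 99.1 and 165 CPM in scopolamine 1 to 4 and 218, 195, 183 and 158 CPM in sham 1 to 4.

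Of 5 lymphocyte markers 4 were higher, and their sum, led by Ptprc, was 103, 160.2, 145 and 38.8 CPM in scopolamine 1 to 4 and 219.8, 54.0, 78.0 and 66.5 CPM in sham 1 to 4, with sham 1 the highest library once more. Cd3e, Cd3g and Cd8a, the last of them lower, reached the filter's level in 3 scopolamine libraries and 1 sham library. Macrophage markers, led by Lyz2, summed to 9.68, 4.41, 16.0 and 11.8 CPM in scopolamine 1 to 4 and 4.21, 6.69, 5.56 and 6.66 CPM in sham 1 to 4. Lyz2 had a log2 fold change of 0.78, and the defining Adgre1 and Csf1r were at or near 0 in every library. Endothelial and adipose markers, led by Pecam1, summed to between 10.1 and 14.6 CPM, with Adipoq at 0 in all libraries and Cdh5 and Kdr at or near 0. Their part in the result was not tested either.

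**Figure D3:**
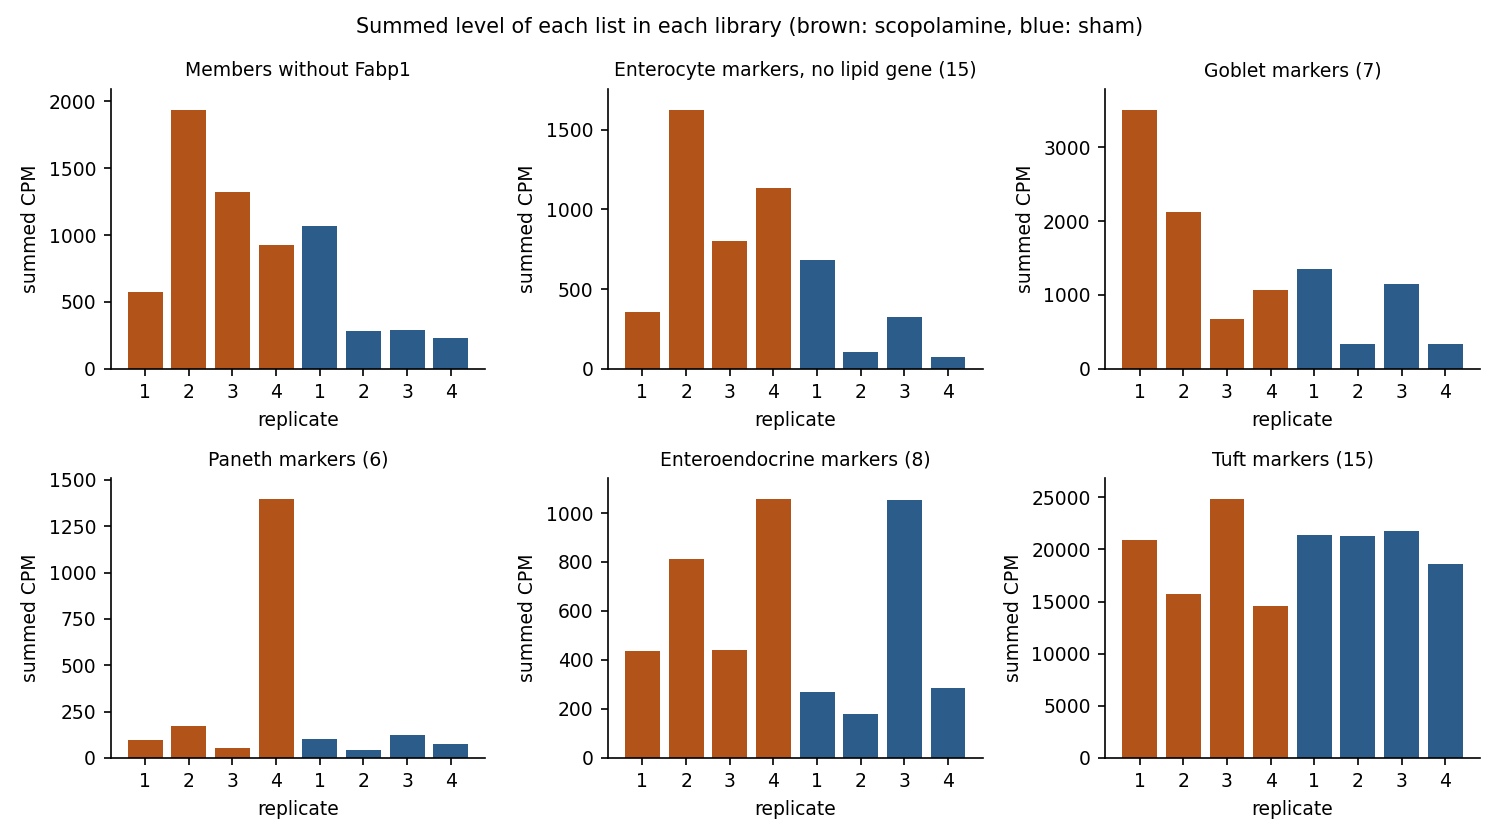
Summed CPM of the 10 genes without Fabp1 and of 5 marker lists in each library, brown for scopolamine 1 to 4 and blue for sham 1 to 4, with bars from 0 and a scale of its own in each panel. Enterocyte markers and the 9 genes without Fabp1 share their highest library, scopolamine 2, and their highest sham library, sham 1, while tuft markers are lowest in scopolamine 4.

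Outside all lists, the genes whose log2 CPM followed the mean profile of the 10 genes most closely over the 8 libraries were Akr1b7 (Pearson r = 0.994), Slc6a20a (r = 0.979), Rps6ka1 (r = 0.974), Gm3776 (r = 0.973) and Dpp4 (r = 0.966). These are the 5 highest values among the genes tested that are in no list, and a description only, since the libraries also differ in depth by group. The mean profile includes Cd36, which passed the expression filter through the scopolamine group alone, and was not computed again without it. Akr1b7, an aldo-keto reductase, was at 6.97, 15.5, 8.55 and 8.71 CPM in scopolamine 1 to 4 and 8.11, 2.80, 1.91 and 2.33 CPM in sham 1 to 4. Dpp4, a peptidase of the brush border, was at 20.4, 49.6, 26.4 and 30.7 CPM and at 30.5, 10.6, 3.55 and 3.71 CPM in the same order. In both genes scopolamine 2 was the highest library and sham 1 far above the other sham mice.

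Apoa1, Apoc3 and Apoa4 lie side by side on chromosome 9. In the GENCODE annotation of GRCm38, Apoa1 spans chr9:46228580-46230466 on the plus strand, Apoc3 chr9:46232933-46235636 on the minus strand and Apoa4 chr9:46240696-46243459 on the plus strand. The gaps are 2466 and 5059 bp, with 0 protein-coding genes between them. Despite this position the 3 did not keep a constant proportion. The number of Apoa1 counts per Apoc3 count was 50.3, 50.8, 56.2 and 53.5 in scopolamine 1 to 4 and 35.2, 32.4, 44.0 and 16.0 in sham 1 to 4. The number of Apoa1 counts per Apoa4 count was 1.28, 7.77, 6.30 and 3.55 in scopolamine 1 to 4 and 5.81, 4.96, 67.2 and 1.46 in sham 1 to 4. The first ratio was higher in every treated mouse than in every sham mouse, a comparison chosen after its values were seen, and the second overlapped between the groups, with sham 3 above and scopolamine 1 below all other mice.

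**Figure D4:**
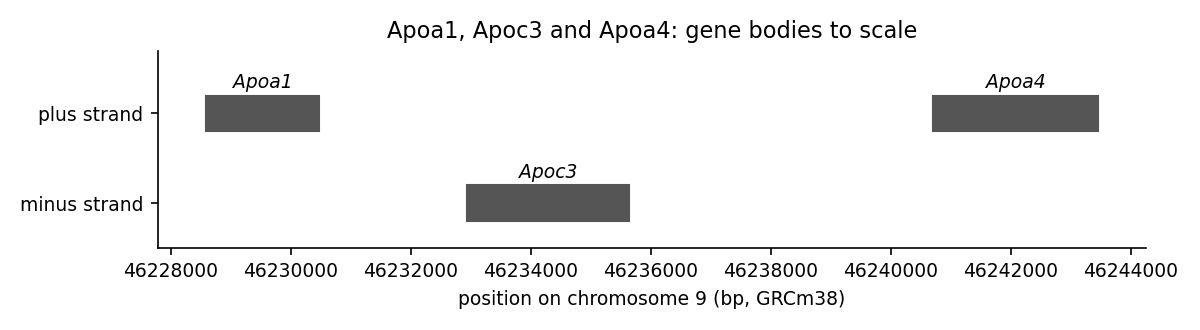
Positions of Apoa1, Apoc3 and Apoa4 on chromosome 9 of GRCm38 in base pairs, with each gene body drawn to scale as a box on its strand. The gaps between neighbours are 2466 and 5059 bp.

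The other members lie elsewhere: Apob at chr12:7977648-8016835, Cd36 at chr5:17781690-17888801, Dgat1 at chr15:76502015-76511953, Fabp1 at chr6:71199827-71205023, Fabp2 at chr3:122895072-122899506, Mttp at chr3:138089854-138144968 and Npc1l1 at chr11:6211013-6230143. Fabp2 and Mttp share a chromosome but are 15190347 bp apart with 77 protein-coding genes between them. All 10 are protein-coding genes in this annotation.

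Promoters were searched because the 10 genes all had a higher mean after scopolamine. In the 250 bases before the RefSeq start, a script looked on both strands for CAAAGNNCA, like the motif of HNF4 factors, for TATAAA, the TATA box, and for TGATAAG, like the motif of GATA factors. RefSeq promoters of 8 of the 10 genes were matched, with Apoc3 and Dgat1 not among them. The windows of Cd36 and Mttp, counted in the 8, lie wholly within the span of the annotated gene. CAAAGNNCA occurred in 3 of 8, against 5.49% of 32851 promoters, TATAAA in 2 of 8, against 12.4%, and TGATAAG in 0 of 8, against 2.05%. A match describes these letters only. The stretches that hold CAAAGNNCA are shown 5′ to 3′ on the strand of the gene, from RefSeq on GRCm38.p6 and trimmed to the bases before the annotated transcripts. They are chr9:46240594-46240695 (plus strand) for Apoa4, chr12:7977427-7977647 (plus strand) for Apob and chr3:122894822-122895071 (plus strand) for Fabp2. Capitals mark CAAAGNNCA, its reverse complement, or TATAAA.
Apoa4: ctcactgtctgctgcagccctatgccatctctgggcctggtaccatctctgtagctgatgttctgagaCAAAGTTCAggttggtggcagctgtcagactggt
Apob: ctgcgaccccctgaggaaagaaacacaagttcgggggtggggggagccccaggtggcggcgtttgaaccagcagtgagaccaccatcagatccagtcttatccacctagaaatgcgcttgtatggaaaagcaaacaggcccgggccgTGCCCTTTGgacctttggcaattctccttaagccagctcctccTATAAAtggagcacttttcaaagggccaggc
Fabp2: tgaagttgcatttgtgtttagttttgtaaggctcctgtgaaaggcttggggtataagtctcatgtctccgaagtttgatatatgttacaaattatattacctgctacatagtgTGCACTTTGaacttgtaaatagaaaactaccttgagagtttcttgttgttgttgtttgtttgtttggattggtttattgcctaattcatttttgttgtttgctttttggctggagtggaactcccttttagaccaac
The match begins 182 bases before the RefSeq start in Apoa4, 103 in Apob and 137 in Fabp2, in the reverse orientation for the latter pair. In Apob TATAAA begins 60 bases before the start. The Fabp1 match to TATAAA, 30 bases before the RefSeq start, lies outside the trimmed stretch and is not shown.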

How the data were processed

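Adaptors were trimmed with bcl2fastq 2.20, reads were assigned to the GRCm38 transcriptome with kallisto 0.44.0 and summed to genes with tximport by the authors, who deposited estimated counts per gene without normalization. Neither strand use nor annotation release is stated. Rounding changed 0 values. The 8 libraries, 4 per group, held 14343362 to 41428916 counts each.

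Groups were compared with edgeR 4.0.16 in R 4.3.3 (TMM, filterByExpr, quasi-likelihood test, Benjamini-Hochberg adjusted p under 0.1 over all genes tested), tested on simulated data. Alternatives were DESeq2 1.42.0, its size factors in edgeR, scaling by library size alone, all genes with a count, a minimum of 10 counts per library, leaving out both sham libraries of lower RNA input, mouse ID series as a covariate, thinning to the smallest total and leaving out each library. Marker and pathway lists are summed CPM.

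Named genes are the 10 members, in each of 7 pathway groups the 2 most abundant per kb and the smallest p, the leading gene of each marker list with Dclk1, Trpm5 and Pou2f3, and the 5 most similar profiles (log2 CPM, prior count 2). Members and lists were chosen with earlier results of these data known.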

Additional observations from a re-analysis of the deposited data

Results flagged for a closer look

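Within each group of 4 libraries, the gap between the most extreme library and its nearest neighbour was compared with Dixon's 95% critical value for the gap as a share of the group's range. Of 124 groups of values examined, 21 exceeded it. Chance alone gives about 1 in 20 groups where values are normally distributed. The values here were CPM without a log transform, for which the share by chance was not computed. Many of these values also come from the same library or share genes.

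Sham 1 was far above the other sham libraries for several lipid genes and their sums. Apoa1 was at 395 CPM against at most 66.6 CPM in the other sham mice, Apoc3 at 11.2 against at most 1.82, Fabp1 at 5280.1 against at most 2382 and Fabp2 at 219 against at most 45.9. Rbp2 was at 211 CPM, Mogat2 at 61.9 and Prap1 at 219, and of the genes with similar profiles Akr1b7 was at 8.11, Slc6a20a at 10.01 and Gm3776 at 22.0 CPM. The summed CPM of the 10 genes was 6345, and 1064 without Fabp1, while the lymphocyte sum was 219.8. Sham 1 is also the only sham library of mouse ID series M, 1 of the pair made from 200 pg of RNA, and the only sham library from 3000 sorted cells in place of 4000, a number it shares with scopolamine 1. The part of each of these was not tested.

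The other values stood alone. Scopolamine 4 had the lowest Stard3 of its group, 50.6 CPM, and the highest Lyz1, 488 CPM, and Paneth sum, 1397 CPM. Scopolamine 2 had an intracellular carrier sum of 1629 CPM and scopolamine 3 a lipid droplet sum of 949 CPM, each the highest of its group. In sham, Cidec was at 1.56 CPM in sham 2 and 0 in the others, the enteroendocrine sum was 1052 CPM in sham 3, and the tuft sum was lowest in sham 4, at 18608 CPM.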

How the results depend on the processing

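Under all alternatives together, 159 log2 fold changes of the 10 genes were computed, 157 in the direction of the first analysis. The exceptions were both of Fabp1, -0.30 with mouse ID series as a covariate and -0.026 without scopolamine 3, with a range of -0.026 to 0.53 when each library was left out. The filter of at least 10 counts in every library removed Cd36. Only DESeq2 brought a log2 fold change of the 10 genes past the adjusted threshold, for Cd36 at 5.31.

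In edgeR 0 genes were called over all libraries, against 193 with DESeq2, 9 without the 2 sham libraries of lower RNA input, and 0 to 2 with each library left out. DESeq2 called 1 of the 10 genes and 1 of the 58 other pathway genes past the filter as higher, against 1.01% of all genes. The 1 of 10 was Cd36, so that count was 0 of 9 without it. At an unadjusted p under 0.05, 6 of the 10 genes became 2 with mouse ID series as a covariate and 1 to 9 with each library left out, while the share of all genes higher was 3.33%, 3.28% and 1.61% to 5.25%. Without Cd36 these counts were 5, 1 and 0 to 8 of 9. Scaling by library size alone gave 4 of 10, or 3 of 9 without Cd36, where 3.49% of all genes were higher. The 10 pathway genes higher at that level became 16 without both low-input sham libraries, where the share of all genes was 6.04%, and 4 to 15 with each library left out. Of the 10 genes, 2 had groups that did not overlap, against 1 with library size only, 8 without both low-input libraries, and 2 to 8 with each library left out. The share of all genes was 1.92% over all libraries, 5.09% without sham 1 and 9.07% without both low-input ones. The counts without Cd36 were 1, 7 and 7 of 9 in these settings. For the other settings the share of all genes was not computed, and the 1 gene left with library size only was Cd36. The cause of these shifts was not tested.

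Mice were not paired across groups because the labels give no replicate numbers. The first analysis had no covariate, and the mouse ID series was a covariate only in an alternative. There were 4 mice per group, every sham library was deeper than every treated one, low RNA input occurred only in sham, and each mouse ID series had 1 library on 1 side. Thinning to the smallest total left 5 of the 10 genes at an unadjusted p under 0.05. Cd36 and Cidec are limited by sham counts near 0. The series holds no ZSgreen-negative cells.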

Other observations

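A few pathway genes fell outside the rule for named genes and are given here as values chosen after they were seen. Gpat3, a glycerol-3-phosphate acyltransferase, was at 3.16, 19.5, 25.9 and 30.8 CPM in scopolamine 1 to 4 and 9.78, 3.43, 1.51 and 0.986 CPM in sham 1 to 4. Isx, an intestinal homeobox factor, was at 7.37, 70.6, 23.5 and 66.7 CPM in scopolamine 1 to 4 and 15.9, 3.75, 17.3 and 0.747 CPM in sham 1 to 4. In both genes scopolamine 1 was low among the treated mice and overlapped the sham range. Scarb1, a receptor for high-density lipoprotein, went the other way, at 2.51, 2.11, 2.68 and 15.9 CPM in scopolamine 1 to 4 and 9.14, 20.3, 13.3 and 11.2 CPM in sham 1 to 4, so that scopolamine 4 alone lay within the sham range. Its log2 fold change was -1.21 (standard error 0.71) with a Benjamini-Hochberg adjusted p of 0.822 in edgeR.

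Dgat2, the second enzyme of triglyceride synthesis, had 0 counts in sham 2 but 464, 602 and 282 in sham 1, sham 3 and sham 4, and between 112 and 758 in the treated mice. Fabp6, the bile acid carrier typical of the ileum, had 0, 37, 503 and 5 counts in scopolamine 1 to 4 and 420, 0, 363 and 46 in sham 1 to 4, so it was present in some mice of each group and absent in others.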
